A study of Homo sapiens with 4 samples.

Results

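Interferon-stimulated genes (ISGs) are the genes that a cell switches on after sensing an interferon, and 44 of the best known were described here out of 58735 genes measured by RNA-seq. They were chosen by name and textbook role, by a rule that uses no measured value but was set with earlier results of these data known, and comprised 10 groups: the IFIT, IFITM, OAS, MX and PARP families, RNA sensors and helicases, transcription factors, the ISG15 system, other antiviral effectors and other induced genes. Expression was measured in libraries labelled as 2 human colorectal cancer cell lines, HCT116 and LOVO, both wild type, each as adherent cells and as spheroids. Adherent cells were untreated and grown in medium with serum, whereas spheroids were grown without attachment in serum-free medium with growth factors and with oxaliplatin, a platinum drug, at 1 μg/ml by the study's methods (the sample labels give 1 mg/ml and name no drug). Attachment, medium and drug therefore differed together and their parts cannot be told apart. Each of the 4 conditions was a single library, so no difference within a line or between lines had a replicate check.

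Type I and type III interferons bind receptors on the cell surface, which activate the kinases JAK1 and TYK2. These activate STAT2, which binds DNA in a complex with IRF9 at a promoter element called the interferon-stimulated response element (ISRE). The induced proteins block viral entry, translation and replication, and many cancer cell lines keep some of them on without added interferon.

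The libraries held 15483569 to 20429147 reads on genes, and levels are given as FPKM, fragments per 1 kb of transcript and 1000000 fragments of the library. The limit set by 3 reads was 0.147 to 0.179 FPKM for a 1 kb transcript. The labelled cell type was examined with 8 markers of colorectal epithelium, whose summed level was 915 and 714 FPKM in adherent cells and spheroids of HCT116 but 312 and 182 FPKM in the libraries labelled LOVO. EPCAM, an epithelial adhesion molecule, was at 85.6 and 79.3 FPKM in HCT116 and at 0.930 and 1.50 FPKM in LOVO. CDX2, an intestinal transcription factor, had no reads in LOVO. The keratins KRT8 (189 and 81.6 FPKM) and KRT18 (122 and 98.8 FPKM) held most of the LOVO sum. The 6 fibroblast markers summed to 5.60 and 16.1 FPKM in HCT116 and to 54.0 and 72.8 FPKM in LOVO. The matrix proteoglycans LUM (31.4 and 50.4 FPKM) and DCN (10.4 and 9.97 FPKM) were present in LOVO. In HCT116, LUM had 0 and 1 reads and DCN had 0 and 0. The collagen gene COL1A1 went the other way in spheroids, at 15.5 FPKM in HCT116 and 6.10 FPKM in LOVO. COL1A2 had at most 1 read in any library. The 8 immune markers summed to at most 2.14 FPKM in any library. The 4 endothelial markers reached 7.84 FPKM in LOVO spheroids, with PECAM1 alone at 6.35 FPKM, against at most 1.13 FPKM elsewhere. The levels of EPCAM, CDX2, LUM and DCN go against a colorectal epithelial label for the LOVO libraries, whereas the keratins go with it. Their identity was not tested, and LOVO below means the label. The part of these marker differences in any result that uses a LOVO library was not tested. Levels and FPKM ratios within HCT116 do not use those libraries, although the minimum level applied below is a mean over all 4. In bulk RNA, fewer cells expressing a gene and less RNA per cell cannot be told apart.

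The 44 ISGs together made up 0.178% (adherent cells) and 0.177% (spheroids) of all FPKM in HCT116. In LOVO these shares were 0.871% and 2.18%. Without IFI6 alone, the most abundant ISG, the shares were 0.165%, 0.155%, 0.713% and 1.46%. The median ISG was at 1.83, 2.13, 13.2 and 20.3 FPKM in that order, whereas the median of all genes tested lay between 5.48 and 5.86 FPKM. The genes tested are the 14429 with a mean of at least 1 FPKM, a minimum not applied to the 44 ISGs here. With that difference, the median ISG lay below the median gene tested in HCT116 and above it in LOVO. In adherent HCT116 cells 8 ISGs exceeded 10 FPKM and 14 were under 1 FPKM, and in LOVO spheroids the numbers were 31 and 2. Both LOVO levels exceeded both HCT116 levels for 37 of the 44 ISGs (34.3% of all genes tested did so), and LOVO spheroids held the highest level for 36 (23.5% of all genes tested). Among the 39 ISGs that met the same minimum, the numbers were 34 and 33. Of these 39, 7 were under 1 FPKM in both HCT116 libraries and met the minimum only through LOVO. Their highest level had to lie in a LOVO library, so both numbers were partly set by the minimum.

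**Figure D1:**
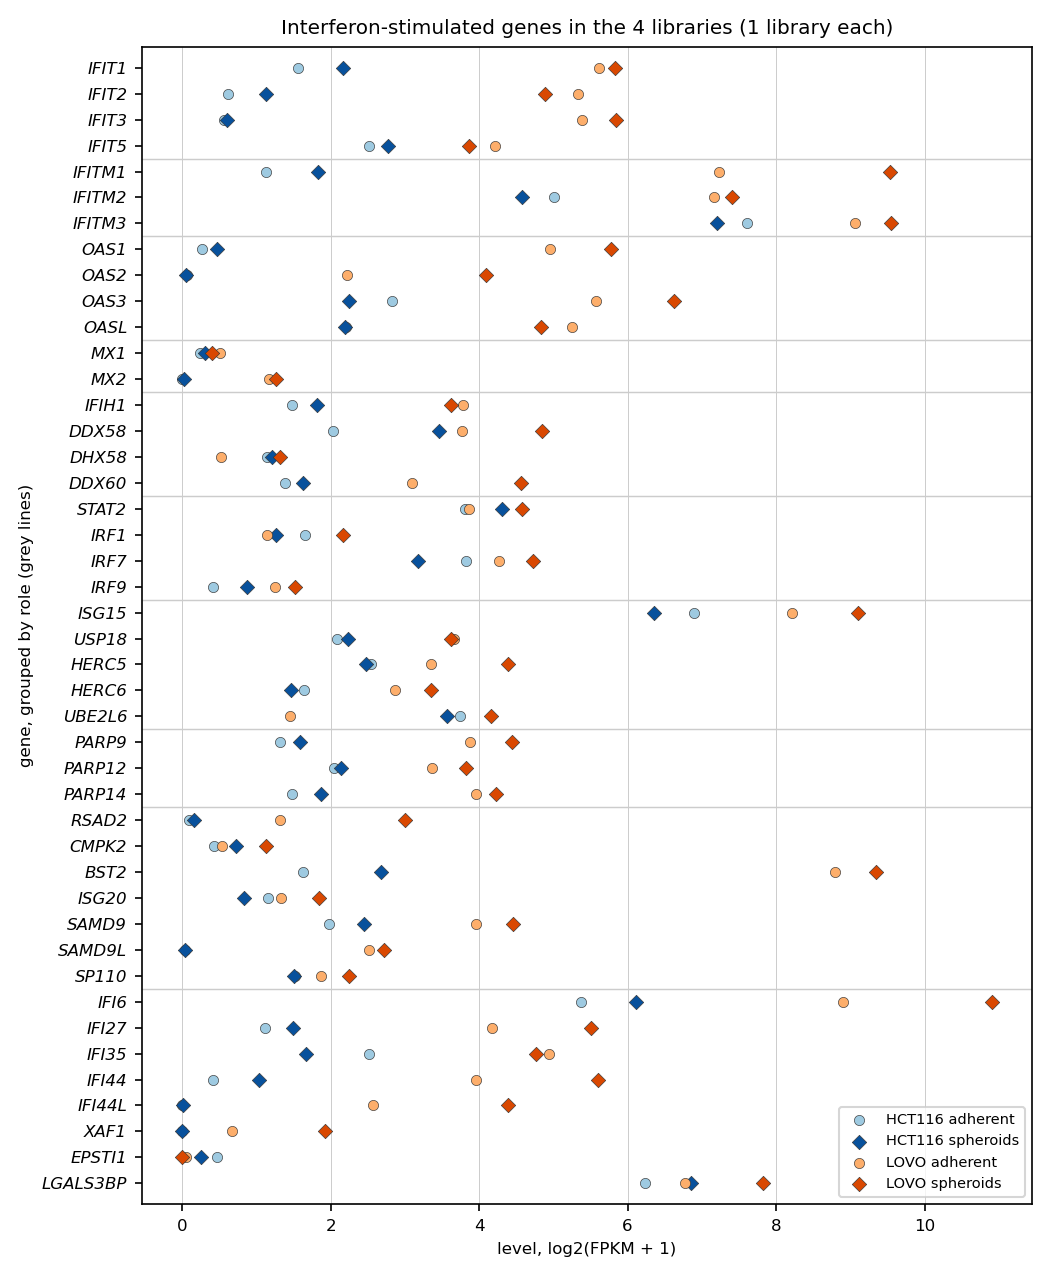
Level of each of the 44 ISGs in the 4 libraries as log2(FPKM + 1), grouped by role; each symbol is a single library, with circles for adherent cells and diamonds for spheroids, blue for HCT116 and orange for LOVO. Most ISGs lie farthest right in LOVO spheroids, where IFI6 reached 1913 FPKM, and MX1 stays under 1 FPKM in all 4 libraries.

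Promoter sequence shows what many of these genes have in common. RefSeq promoters on build GRCh38.p14, from 250 bases before to 50 bases after the transcription start, were found for 26 of the 44 ISGs. The core of the ISRE, searched as GAAA, any 2 bases and GAAA on both strands, was present in 18 of the 26 (69.2%), compared with 3.57% of all 35116 promoters in the table. At least 2 copies, which may overlap, were present in 12. The pattern is short, so a hit describes these letters and not a bound site. The windows printed here belong to the 8 ISGs that hold the ISRE core and differed by more than 1 on the log2(FPKM + 1) scale between spheroids and adherent cells of at least 1 line. Each window surrounds the core nearest the start among those wholly upstream of it. They are written 5′ to 3′ on the gene's own strand, with complete cores in capitals.
IFITM1, chr11:313975-314034, plus strand: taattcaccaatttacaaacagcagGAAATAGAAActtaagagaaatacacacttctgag
OAS3, chr12:112938437-112938473, plus strand: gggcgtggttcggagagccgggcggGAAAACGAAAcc
DDX60, chr4:168318771-168318830, minus strand: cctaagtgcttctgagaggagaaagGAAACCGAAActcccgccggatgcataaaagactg
HERC5, chr4:88457020-88457079, plus strand: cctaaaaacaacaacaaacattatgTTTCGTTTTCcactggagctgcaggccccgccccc
BST2, chr19:17405720-17405779, minus strand: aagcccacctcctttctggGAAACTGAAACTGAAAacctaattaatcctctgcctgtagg
IFI6, chr1:27672251-27672310, minus strand: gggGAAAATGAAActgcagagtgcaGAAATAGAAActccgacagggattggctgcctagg
IFI44L, chr1:78620350-78620409, plus strand: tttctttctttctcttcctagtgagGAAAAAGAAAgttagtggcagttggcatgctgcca
LGALS3BP, chr17:78979947-78980006, minus strand: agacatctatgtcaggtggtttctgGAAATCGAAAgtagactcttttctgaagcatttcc
Among these windows the core lay closest to the start in OAS3 (bases -12 to -3) and farthest in BST2 (bases -124 to -115), where overlapping copies run together. In HERC5 the core reads on the opposite strand. The median log2 difference between spheroids and adherent cells in LOVO was 0.53 for the 18 with the core and 0.59 for the 8 without it. In HCT116 these medians were 0.25 and 0.10.

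The question of how spheroid culture with oxaliplatin differs from adherent culture was then asked within each line. Differences are log2(FPKM + 1) in spheroids minus adherent cells, described over 14429 genes with a mean of at least 1 FPKM. Of the 44 ISGs, 39 met this minimum. MX1, MX2, CMPK2, XAF1 and EPSTI1 did not, and 7 of the 39 met it only through LOVO, being under 1 FPKM in both HCT116 libraries. In HCT116, no ISG differed by more than 2 log2 units in either direction (0.201% of all genes tested were higher by that much and 0.506% lower). By more than 1 log2 unit, 2 ISGs, DDX58 and BST2, were higher in spheroids (2.19% of all genes tested) and 0 were lower (3.33%). Adding 1 FPKM shrinks differences of low genes. On the log2 ratio of FPKM, with nothing added, IFI44, IRF9, IFIT2 and IFITM1 were also higher by more than 1 in HCT116 spheroids. IFI35 was lower by more than 1. The share of all genes on that scale is not given. In LOVO, 2 ISGs, UBE2L6 and IFITM1, were higher by more than 2 (1.81% of all genes tested), 14 were higher by more than 1 (8.57%) and 0 were lower by more than 1 (7.85%) or 2 (0.943%). XAF1, below the minimum level, was also higher by more than 1 in LOVO. On the log2 ratio of FPKM, DHX58 and CMPK2 were also higher by more than 1 in LOVO spheroids. By more than 2 on that ratio, OAS2, RSAD2, IFI44L and XAF1 were also higher.

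Over all 44 ISGs, 27 were nominally higher (45.8% of all genes tested) and 16 lower in spheroids of HCT116, with differences from -0.85 to 1.42 and a median of 0.07. In LOVO 36 were nominally higher (45.5% of all genes tested) and 8 lower, with differences from -0.44 to 2.71 and a median of 0.53. Among the 39 ISGs that met the minimum, 24 were nominally higher in HCT116 and 33 in LOVO. The medians of all genes tested were -0.03 and -0.06. Exact 95% intervals from the reads, which cover counting error only, lay above 0 for 19 ISGs and below 0 for 9 in HCT116. In LOVO they lay above 0 for 35 and below 0 for 5. The shares of all genes with such intervals were not computed, so these counts have no background. Counting error was therefore small against most LOVO differences, but the spread between cultures is unknown.

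Among the 39 ISGs, 20 were nominally higher in spheroids of both lines (27.2% of all genes tested) and 2, IFI35 and OASL, were lower in both, although IFI35 turned to higher in LOVO when values were rescaled to TPM and OASL turned to higher in HCT116 after centring on the median of all genes. A further 13 were higher in LOVO and lower in HCT116 spheroids, and 4 were the reverse. The shares of all genes that were lower in both or opposite between the lines were not computed. The LOVO difference was the larger for 29 of 39 (74.4%, against 47.8% of all genes tested). This count includes the 7 ISGs that met the minimum only through LOVO. Adding 1 FPKM shrinks their HCT116 differences towards 0, so a larger LOVO difference was partly set by the scale. No count without them was made. Across the 39 genes the differences of the lines, which share no library, had a Pearson r of 0.14 and a Spearman rho of 0.14. Genes are not independent replicates, and no p-value is given.

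**Figure D2:**
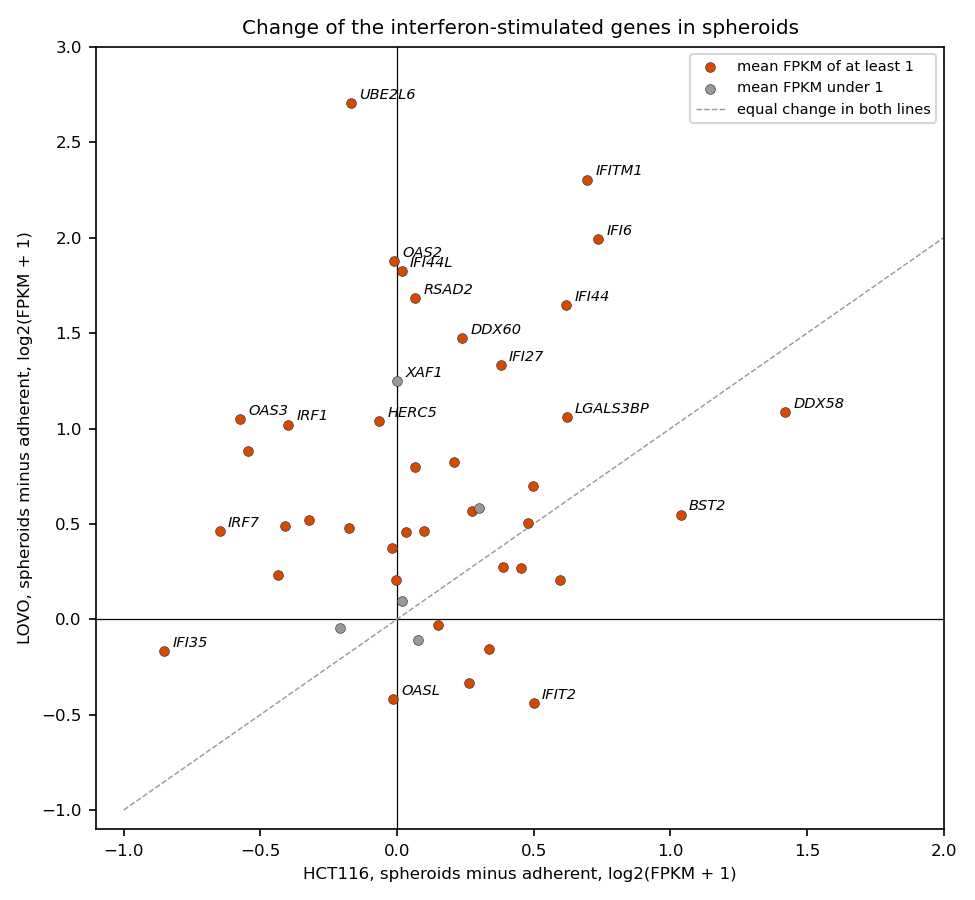
Spheroid minus adherent difference on the log2(FPKM + 1) scale in HCT116 (horizontal) and LOVO (vertical) for the ISGs, 1 point a gene. Points spread further along the LOVO axis, up to 2.71 for UBE2L6, while DDX58 is the only ISG past 1 in both lines on this scale. On the log2 ratio of FPKM, IFI44 (1.64 in HCT116 and 1.71 in LOVO) and IFITM1 (1.10 and 2.31) were also past 1 in both.

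The RNA sensors and helicases held the largest ISG difference in HCT116. DDX58 encodes RIG-I, the cytosolic sensor of viral RNA ends. In HCT116 it was at 3.10 FPKM when adherent and 9.97 FPKM as spheroids, and in LOVO at 12.6 and 27.9 FPKM. Spheroids were thus above adherent cells in both lines, by 1.42 in HCT116 and 1.08 in LOVO on the log2(FPKM + 1) scale. The log2 ratio of FPKM was 1.69 (95% interval 1.48 to 1.89) in HCT116 and 1.14 (1.04 to 1.25) in LOVO. DDX60, a helicase linked to RIG-I signalling, was at 1.61 and 2.08 FPKM in HCT116 and at 7.53 and 22.7 FPKM in LOVO, a difference past 1 in LOVO alone. IFIH1, which encodes the sensor MDA5, was at 1.79 and 2.52 FPKM in HCT116 and at 12.7 and 11.3 FPKM in LOVO. DHX58, which encodes the regulator LGP2, was at 1.21 and 1.32 FPKM in HCT116 and at 0.435 and 1.50 FPKM in LOVO.

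Limma, fitted over all genes with the lines as a second factor and 1 residual degree of freedom, called 0 genes in spheroids against adherent cells at an adjusted p under 0.05. The smallest Benjamini-Hochberg adjusted p of an ISG was 0.462, shared by DDX58, IFITM1, IFI44, IFI6, BST2 and LGALS3BP. DDX58 had the smallest unadjusted p of these, with a mean log2 difference of 1.25 (SE 0.25, higher in spheroids of both lines). At an unadjusted p under 0.05, 7 of 39 ISGs passed (10.7% of all genes tested), namely DDX58, IFITM1, IFI44, IFI6, BST2, LGALS3BP and IFI27, all with the higher level in spheroids. No member is therefore called changed.

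The IFITM proteins sit in membranes and block viral fusion. IFITM1 was at 1.18 and 2.54 FPKM in adherent cells and spheroids of HCT116 and at 149 and 743 FPKM in LOVO. The LOVO ratio was 4.97-fold (log2 2.31, 95% interval 2.26 to 2.37), and the HCT116 libraries held only 26 and 46 reads. IFITM2 was at 31.2 and 22.8 FPKM in HCT116 and at 142 and 168 FPKM in LOVO. IFITM3 was at 195 and 147 FPKM in HCT116, where it was the most abundant ISG, and at 534 and 749 FPKM in LOVO. IFITM2 and IFITM3 were thus lower in HCT116 spheroids and higher in LOVO spheroids. Of the 50-base windows of their transcripts, 32.0% for IFITM1, 34.1% for IFITM2 and 17.4% for IFITM3 also occur in another gene, so how reads were split among them is uncertain.

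The OAS enzymes make the 2-5A messenger that activates RNase L. OAS1 was at 0.198 and 0.385 FPKM in HCT116 and at 30.1 and 54.0 FPKM in LOVO. OAS2 was at 0.0470 and 0.0380 FPKM in HCT116, from 6 and 4 reads, and at 3.66 and 16.1 FPKM in LOVO. OAS3 was at 6.06 and 3.74 FPKM in HCT116 and at 46.5 and 97.5 FPKM in LOVO. All 3 were higher in LOVO spheroids than in adherent LOVO cells, OAS2 and OAS3 by more than 1 log2 unit. In HCT116, OAS3 was lower in spheroids (log2 ratio -0.70, 95% interval -0.85 to -0.54), and the interval of OAS2 included 0. OASL, an OAS-like protein that acts on RIG-I, was at 3.60 and 3.55 FPKM in HCT116 and at 36.9 and 27.4 FPKM in LOVO. Its LOVO spheroids were the lower, against the other members of the family.

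The IFIT proteins bind viral RNA and stall its translation. IFIT1 was at 1.96 and 3.47 FPKM in HCT116 and at 48.2 and 55.7 FPKM in LOVO. IFIT2 was at 0.538 and 1.18 FPKM in HCT116 and at 39.2 and 28.7 FPKM in LOVO. IFIT3 was at 0.483 and 0.519 FPKM in HCT116 and at 40.8 and 56.4 FPKM in LOVO. The gap between lines was far wider than that between culture forms in these genes, and no IFIT differed by more than 1 on the log2(FPKM + 1) scale within a line. On the ratio scale, which weights low levels more, IFIT2 was 2.18-fold higher in HCT116 spheroids (log2 ratio 1.13, 95% interval 0.58 to 1.69, from 45 and 81 reads). IFIT5 was the most even member, at 4.72 and 5.86 FPKM in HCT116 and at 17.5 and 13.6 FPKM in LOVO.

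The MX GTPases trap viral nucleocapsids and are among the most strongly inducible ISGs, but both stayed low. MX1 was at 0.177 and 0.242 FPKM in HCT116 and at 0.427 and 0.323 FPKM in LOVO, from 31 to 66 reads a library. MX2 had 0 and 3 reads in HCT116 and was at 1.24 and 1.39 FPKM in LOVO. Adherent LOVO cells were at least 110-fold higher for MX2 than a floor of 3 reads in adherent HCT116 cells.

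None of the 4 transcription factors that drive the response differed by more than 1 on the log2(FPKM + 1) scale between adherent cells of the lines, although the low IRF9 was 4.11-fold higher in LOVO. STAT2 was at 13.0 and 18.8 FPKM in HCT116 and at 13.6 and 22.8 FPKM in LOVO, higher in spheroids of both lines by 0.50 and 0.70 log2 units. IRF9, its DNA-binding partner, was at 0.336 and 0.831 FPKM in HCT116 and at 1.38 and 1.87 FPKM in LOVO, but 1838 of its 3794 exonic bases overlap the gene AL136295.5 on the same strand. IRF1, an activator also induced by interferon gamma, was at 2.16 and 1.40 FPKM in HCT116 and at 1.21 and 3.48 FPKM in LOVO. IRF7, the activator of interferon alpha genes, was at 13.2 and 8.04 FPKM in HCT116 and at 18.3 and 25.5 FPKM in LOVO. Both IRF1 and IRF7 were lower in HCT116 spheroids and higher in LOVO spheroids. IRF1 shares 1716 exonic bases with genes on the opposite strand, which unstranded reads could not separate.

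The ISG15 system attaches the ubiquitin-like protein ISG15 to other proteins. ISG15 itself was at 118 and 80.6 FPKM in HCT116 and at 297 and 548 FPKM in LOVO. UBE2L6, the enzyme that carries ISG15, was at 12.4 and 10.9 FPKM in HCT116, 1.73 FPKM in adherent LOVO cells and 16.8 FPKM in LOVO spheroids. This was the largest spheroid difference of any ISG, 9.74-fold in LOVO (log2 ratio 3.28, 95% interval 2.92 to 3.66). It came from a low adherent LOVO level of 68 reads, and its LOVO spheroids were only 1.54-fold above HCT116 spheroids. HERC5, the ligase for ISG15, was at 4.83 and 4.57 FPKM in HCT116 and at 9.16 and 19.9 FPKM in LOVO. HERC6, a related ligase, was at 2.13 and 1.77 FPKM in HCT116 and at 6.30 and 9.19 FPKM in LOVO. USP18, the protease that removes ISG15 and restrains the receptor, was at 3.25 and 3.72 FPKM in HCT116 and at 11.6 and 11.3 FPKM in LOVO, with 23.4% of its windows shared with USP41 or other genes. The conjugation enzymes UBE2L6 and HERC5 thus differed within LOVO by more than 1 log2 unit, whereas the protease did not.

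Among the other antiviral effectors, BST2 (tetherin), which holds budding virions at the membrane, differed most between lines. It was at 2.10 and 5.37 FPKM in HCT116 and at 444 and 649 FPKM in LOVO. The spheroids were higher by a log2 ratio of 1.35 (95% interval 0.84 to 1.88, from 48 and 101 reads) in HCT116 and 0.55 (0.51 to 0.59) in LOVO. RSAD2 (viperin), which makes a chain-terminating nucleotide, was at 0.0609 and 0.111 FPKM in HCT116 and at 1.50 and 7.03 FPKM in LOVO. SAMD9L, a restriction factor of poxviruses, had 4 and 3 reads in HCT116 and was at 4.72 and 5.60 FPKM in LOVO. Its neighbour SAMD9 was less divergent, at 2.93 and 4.48 FPKM in HCT116 and at 14.5 and 21.0 FPKM in LOVO. CMPK2, a nucleotide kinase beside RSAD2 in the genome, stayed between 0.342 and 1.18 FPKM. The exonuclease ISG20 and the nuclear body protein SP110 were at 0.784 to 3.73 FPKM throughout.

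The remaining induced genes held the most abundant ISG. IFI6, a mitochondrial protein that opposes cell death, was at 40.5 and 68.1 FPKM in HCT116 and at 479 and 1913 FPKM in LOVO. Its spheroids were 1.68-fold higher in HCT116 (log2 0.75, 95% interval 0.61 to 0.89) and 3.99-fold higher in LOVO (interval of the log2 ratio 1.96 to 2.03). IFI6 was thus higher in spheroids of both lines. IFI27, also mitochondrial, was at 1.16 and 1.81 FPKM in HCT116 and at 17.1 and 44.6 FPKM in LOVO. IFI44 was at 0.337 and 1.05 FPKM in HCT116 and at 14.6 and 47.7 FPKM in LOVO. Its neighbour IFI44L had 0 and 2 reads in HCT116 and was at 4.91 and 20.0 FPKM in LOVO. All 3 were higher by more than 1 log2 unit in LOVO spheroids. Adherent LOVO cells were at least 342-fold higher for IFI44L than the floor of 3 reads in adherent HCT116 cells.

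LGALS3BP, a secreted glycoprotein, was the most even of the abundant ISGs, at 74.5 and 115 FPKM in HCT116 and at 108 and 226 FPKM in LOVO. XAF1, a pro-apoptotic protein often silenced in tumours, had no reads in HCT116 and was at 0.590 and 2.78 FPKM in LOVO. Against the same floor it was at least 26.5-fold higher in adherent cells and at least 103-fold higher in spheroids. Of its 6615 exonic bases, 2535 overlap the gene PRAL on the opposite strand, which unstranded reads could not separate. IFI35 was at 4.72 and 2.17 FPKM in HCT116, the largest lower difference of any ISG there (log2 ratio -1.12, 95% interval -1.53 to -0.72), and at 29.6 and 26.3 FPKM in LOVO. EPSTI1 was the reverse of most ISGs, with 38 and 16 reads in HCT116 and 3 and 0 reads in LOVO. The PARP family, a group of ADP-ribosyltransferases, was higher in LOVO throughout. PARP9 was at 1.48 and 2.0 FPKM in HCT116 and at 13.7 and 20.7 FPKM in LOVO. PARP12 and PARP14 lay between 1.79 and 3.42 FPKM in HCT116 and between 9.30 and 17.8 FPKM in LOVO.

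**Figure D3:**
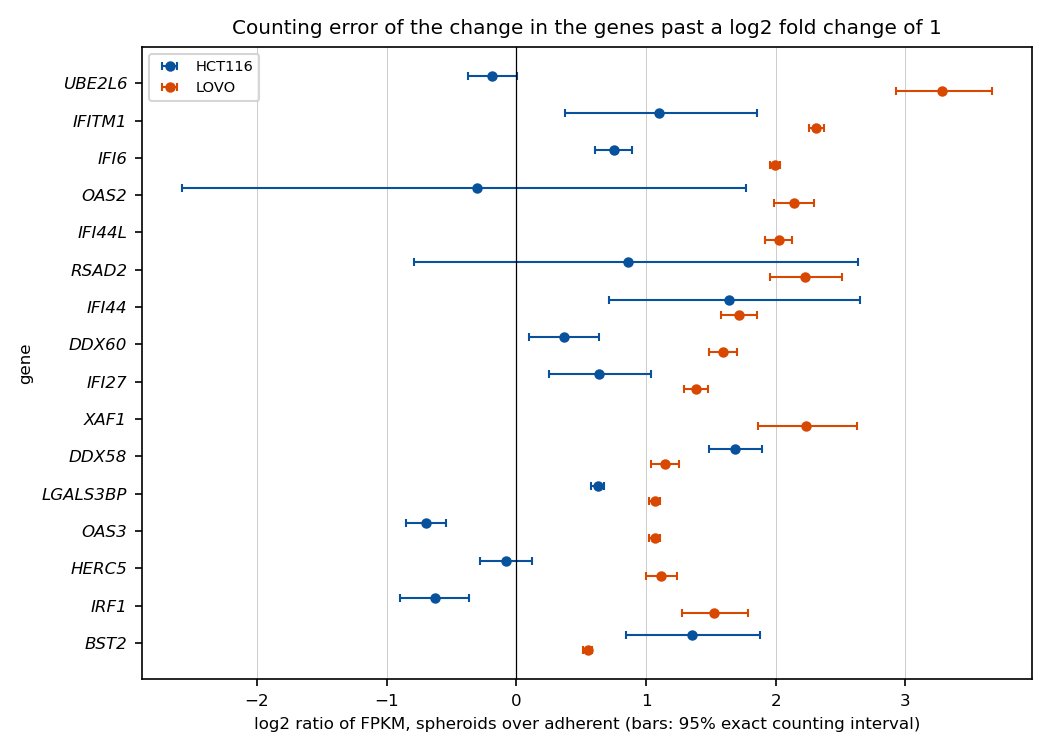
Log2 ratio of spheroids to adherent cells for the named ISGs in HCT116 and LOVO with exact 95% intervals from the reads, which hold counting error only. IFI44L and XAF1 have too few reads for an interval in HCT116. The intervals are widest for OAS2 and RSAD2 in HCT116 and narrow for IFITM1 and IFI6 in LOVO, where UBE2L6 lies highest at 3.28.

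The lines were then compared at the same culture form. In adherent cells, 19 of 39 ISGs were higher in LOVO by more than 2 on the log2(FPKM + 1) scale (5.26% of all genes tested), and 29 by more than 1 (17.4%). UBE2L6 was the 1 ISG lower by more than 2 (5.59% of all genes tested). In spheroids 23 were higher in LOVO by more than 2 (5.68%) and 32 by more than 1 (17.7%), and 0 were lower by more than 1 (15.0%) or 2 (4.71%). The 7 ISGs that met the minimum only through LOVO had to differ in this direction. Among the other 32, 14 were higher in LOVO by more than 2 in adherent cells and 17 in spheroids. The shares of all genes under the same restriction were not computed. Over all 44 ISGs the median difference was 1.70 in adherent cells and 2.17 in spheroids, and 40 and 43 ISGs were nominally higher in LOVO (53.0% and 51.6% of all genes tested). Among the 39 that met the minimum, 36 and 39 were nominally higher. Besides IFI44L and MX2, given above against the floor, the largest FPKM ratios in adherent cells were 211-fold for BST2, 172-fold for SAMD9L, 152-fold for OAS1 and 127-fold for IFITM1. That of SAMD9L rests on 4 reads in adherent HCT116 cells. These libraries also differ in the markers given above, whose part was not tested.

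The genes that make, sense and transmit interferon were then described as 5 lists of 48 genes, 22 of which met the minimum level. None of the 21 interferon ligand genes met it. IFNE, an epithelial type I interferon, had the most reads, with 2 and 43 in HCT116 and 8 and 8 in LOVO. IFNB1, which encodes interferon beta, had 0 and 2 reads in HCT116 and 2 and 6 in LOVO. Apart from IFNE in HCT116 spheroids, no ligand gene had more than 10 reads in any library. IFNE was at 1.74 FPKM there and 0.0665 FPKM in adherent HCT116 cells, a difference of 1.36 on the log2(FPKM + 1) scale. By more than 1 on that scale, none of the 22 genes that met the minimum was higher in spheroids of either line, while 1 was lower in HCT116 (TRIM25, 3.33% of all genes tested) and 2 were lower in LOVO (TRIM25 and JAK1, 7.85%). These shares are near the background.

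The receptor chain IFNAR1 was even, at 7.54 and 8.93 FPKM in HCT116 and at 9.61 and 11.3 FPKM in LOVO. IFNLR1, the receptor chain for type III interferons, was at 6.28 and 5.16 FPKM in HCT116 and at 0.680 and 1.66 FPKM in LOVO, a difference of -2.12 on the log2(FPKM + 1) scale between adherent cells. JAK1, a kinase bound to the receptors, was at 24.3 and 20.7 FPKM in HCT116 and at 45.2 and 19.1 FPKM in LOVO. TRIM25, the ligase that activates RIG-I, was at 33.4 and 15.6 FPKM in HCT116 and at 37.7 and 17.2 FPKM in LOVO, and so lower in spheroids of both lines where DDX58 was higher. Between adherent lines, 5 of the 22 genes that met the minimum were higher in LOVO by more than 1 (22.7%, against 17.4% of all genes tested). Another 3 were lower (16.4%). These shares are near the background. The higher genes were CGAS, IFI16, TMEM173 (1.69), ADAR (1.26) and EIF2AK2 (1.16), and the lower were IFNLR1, MAVS and SOCS1 (-1.35). CGAS and IFI16 met the minimum only through LOVO and had to differ in this direction. CGAS, the cytosolic DNA sensor, had no reads in HCT116 and was at 6.88 and 9.74 FPKM in LOVO. IFI16, a nuclear DNA sensor, had 2 and 3 reads in HCT116 and was at 15.3 and 21.6 FPKM in LOVO. MAVS, the adaptor of RIG-I, was lower in LOVO, at 26.9 and 29.6 FPKM in HCT116 against 12.8 and 13.7 FPKM.

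**Figure D4:**
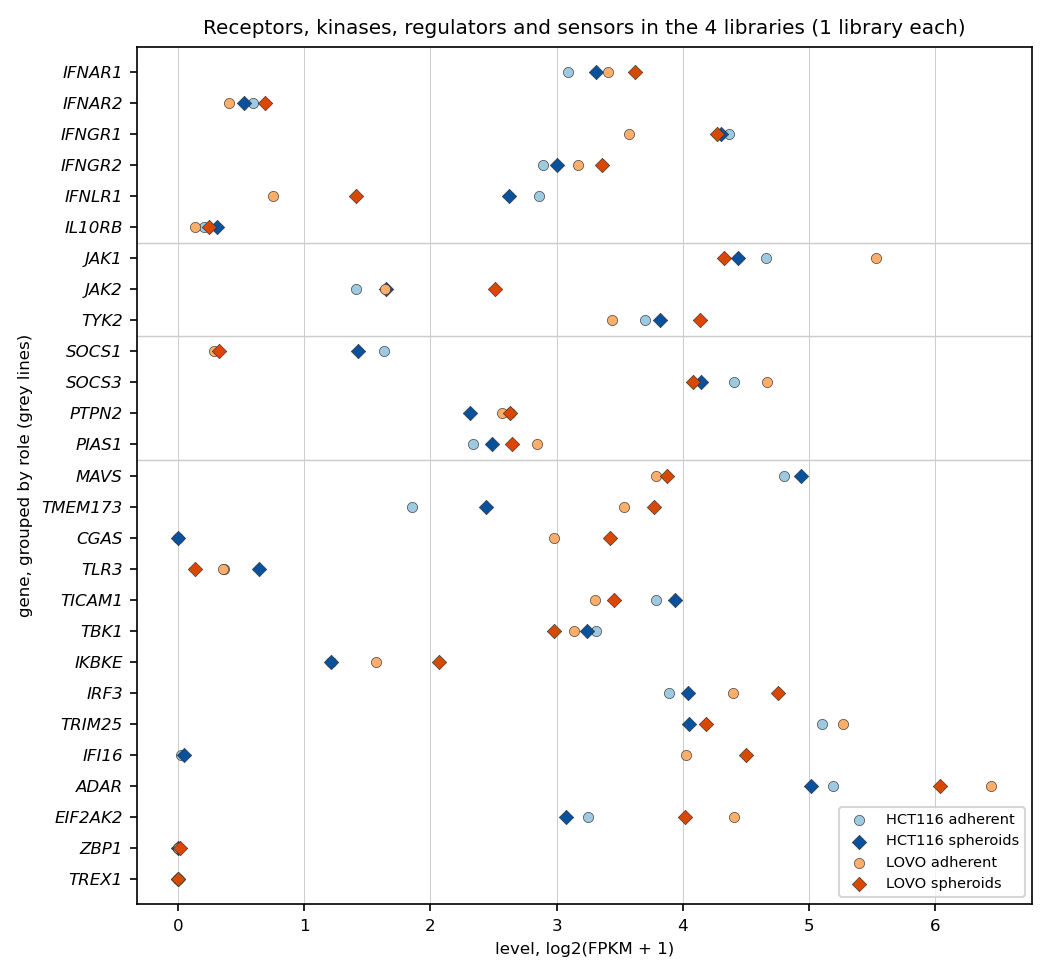
Level of interferon receptors, kinases, negative regulators and nucleic acid sensors as log2(FPKM + 1), 1 symbol a library, with circles for adherent cells and diamonds for spheroids. CGAS and IFI16 lie at or near 0 in HCT116 and well above it in LOVO, and JAK1 is highest in adherent LOVO cells at 45.2 FPKM.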

How the data were processed

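RNA-seq values were deposited by the authors as FPKM per gene for 4 libraries, with a gene length in bases (a fixed value per gene, in no sample unit). The aligner and counter are not given in the sources used here. The submitters' processing notes list mouse builds (GRCm38, mm10), but all 58735 human gene IDs were found in GENCODE 29, 58724 with the same start and end. Strandedness is not stated. Whole reads were recovered from the deposited FPKM and lengths for 100% of values (tolerance 0.01), giving 15483569 to 20429147 reads a library. Depth therefore limits genes of a few reads. Log2 ratios are of FPKM, that is of reads scaled by library size. Their exact Clopper-Pearson 95% intervals, from the reads, cover counting error only. Replicates were absent, so no count test was run.

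Differences are log2(FPKM + 1), which understates changes of low genes, over the 14429 genes with a mean of at least 1 FPKM. Thresholds were 2, after the study's methods, and 1. limma 3.58.1 in R 4.3.3 was fitted with culture form and line. Python 3.11.15 with numpy 2.4.6, pandas 2.3.3, scipy 1.17.1 and matplotlib 3.10.9 was used, and the scripts were tested on simulated data. Alternatives were the pseudocount, the minimum level, TPM, TMM-style scaling, centring and the threshold. Members and gene lists were chosen with earlier results of these data known. Named members were those past 1 within a line, the 10 with the largest difference between adherent lines and the 5 with the highest mean; other members are described by group. A gene of the pathway lists is not reported here.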

Additional observations from a re-analysis of the deposited data

Results flagged for a closer look

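For 10 ISGs the spheroids lay on opposite sides of the adherent cells in the 2 lines, with both 95% counting intervals clear of 0. The difference between lines was not tested, since each condition was 1 library. The share of all genes that meet this rule was not computed, so the count has no background. Values are the LOVO difference minus the HCT116 difference on the log2(FPKM + 1) scale. The spheroids were higher in LOVO and lower in HCT116 for OAS3 (1.63), ISG15 (1.43), IRF1 (1.42), IRF7 (1.11), IFITM3 (0.90), ISG20 (0.84) and IFITM2 (0.67). They were lower in LOVO and higher in HCT116 for IFIT2 (-0.94), IFIT5 (-0.60) and IFIH1 (-0.49), of which IFIH1 turned to higher in LOVO spheroids after rescaling to TPM.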

How the results depend on the processing

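The median difference over the ISGs as a whole kept its sign under the alternatives run, which did not include the 10 role groups singly. Of 112 alternative values of the list results, 89 stayed within tolerance (0.1 log2 units for medians) and 23 moved. Counts of 0 that stayed at 0 are among the 89. Of 334 alternative values of the named members, 180 stayed within 0.1 log2 units and 154 moved. The ISGs higher by more than 2 in LOVO spheroids numbered 2 as reported, 5 with a pseudocount of 0.1 or 0.01, 6 after rescaling to TPM and 5 with TMM-style scaling. At a threshold of 1 the counts were 14 in LOVO (2 at a threshold of 2), 2 in HCT116 (0) and 29 between adherent lines (19). The median spheroid difference over the ISGs that met the minimum was 0.10 in HCT116, 0.31 with a pseudocount of 0.01 and 0.25 with a minimum of 5 FPKM. In LOVO it was 0.55, 0.83 in TPM and 0.65 with TMM-style scaling. The median between adherent lines was 1.98, against 2.27 and 2.30 with pseudocounts of 0.1 and 0.01, 1.70 without a minimum, 2.36 with a minimum of 5 FPKM, 2.23 in TPM and 2.20 with TMM-style scaling. Between spheroids of the lines it was 2.64, against 2.76 and 2.77 in the same order, then 2.17, 2.79, 2.92 and 2.79. TPM moved the median of all genes in LOVO from -0.06 to 0.15 and between the spheroids from 0.04 to 0.21, and turned IFI35, USP18 and IFIH1 to higher in LOVO spheroids. Centring turned OASL, OAS2, SAMD9L and SP110 in HCT116, USP18 and EPSTI1 in LOVO, and STAT2 between adherent lines. Over 8 alternatives the smallest adjusted p of an ISG in limma ranged from 0.363 to 1.0, with 0 to 8 ISGs at an unadjusted p under 0.05. The cause of these shifts was not tested.

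No paired analysis was possible because the labels give no replicate numbers and each condition was 1 library. The limma fit does hold cell line as a factor. No replicate was left out. Levels resting on fewer than 10 reads, as for OAS2, RSAD2, SAMD9L and IFI44L in HCT116, are limited by depth.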
